A study of Mus musculus with 11 samples.

Results

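Opposite-strand transcripts are genes named after a coding gene that lies on the other DNA strand, with the ending "os", or "os" and 1 digit, added to its symbol. They were chosen by name: a gene was taken where its symbol had that ending and the symbol without it was also present. This gave 297 of the 48709 gene IDs in the count tables, with 252 partner genes, all annotated as protein-coding. A further 25 symbols with the ending, such as Fos and Nos1, had no partner and were left out. In GENCODE M21, all 297 lay on the strand opposite to the partner, so the annotation bore out the label. By type, 254 were antisense genes, 14 processed transcripts, 11 lincRNAs and 11 protein-coding genes. Counts were tested for the 85 members with at least 10 counts in at least 5 libraries, and all 81 of their partners passed the same filter.

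The cells were primary neurons of the mouse hippocampus, cultured for 10 days at 20% oxygen before the experiment, and their polyadenylated RNA was sequenced. The hypoxia group (5 libraries) spent 4 h at 1% oxygen in a closed workstation, and the control group (6 libraries) came from the same isolation and stayed at 20% oxygen. No genotype, drug or transgene is named for either group. The labels do not say that libraries of 1 group were separate isolations or dishes, so p-values measure only how far these libraries differ, and part of that can be technical.

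Transcription from both strands of 1 locus is common in mammals, and the non-coding product is often spliced and polyadenylated at a level far below that of the coding gene. Where the starts of both genes lie close together and the genes run apart, they can share 1 promoter region, and where the transcripts overlap, the RNA or its synthesis can act on the partner in some well-studied cases and has no known effect in others. In hypoxia, the transcription factor HIF gathers at DNA with the core letters ACGTG or GCGTG, while Jun belongs to the immediate-early genes that cells switch on within minutes to hours of many kinds of stress.

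The libraries do not mark the strand, so reads from exon bases that both genes of a pair share cannot be told apart. Such shared bases made up a median of 11.1% of the exon length in the 55 tested members that had any, and 56.8% at most (Prox2os). The other 30 tested members shared none with the partner. Their reads are not certain for that reason alone, since a member can also lie over introns of the partner. Without strand marks, reads from unspliced partner RNA there would count to the member. The size of this part was not tested. Exon bases of another gene overlapped 19 tested members, and over 10% of the exon length in 9 of them.

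Library totals ran from 1.66e+07 to 3.19e+07 counts. Levels below are CPM, the counts per 1e+06 counts after TMM scaling. Summed neuronal markers (10 genes, Map2, Tubb3 and Slc17a7 among them) lay at 6309 to 6861 CPM in control and 6403 to 6929 CPM in hypoxia. Summed astrocyte markers lay at 1346 to 1551 and 1331 to 1459 CPM, and oligodendrocyte-lineage markers at 103 to 145 and 86.6 to 112 CPM. By edgeR, 2 of 5 oligodendrocyte-lineage markers and 1 of 5 astrocyte markers were lower in hypoxia, and 2 of 10 neuronal markers were higher. Of 4 tested endothelial and mural markers, 1 was higher (Pdgfrb, a pericyte receptor, 14.5 CPM in control against 21.4 CPM in hypoxia). In that list Kdr (23.7 against 20.5 CPM) and Rgs5 (4.33 against 3.83 CPM) lay lower and Pecam1 (0.747 against 0.894 CPM) higher, without passing. Over all genes tested, 23.0% passed. Microglial markers summed to 13.4 to 16.2 CPM over all libraries, endothelial and mural markers to 40.4 to 51.5 CPM, and fibroblast markers to 90.9 to 169 CPM, and no marker of any list was at 0 in all libraries. The part of other cells in the results was not tested, and in such bulk samples fewer cells of a type cannot be told apart from less RNA per cell.

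The position of a member relative to its partner was read from GENCODE M21. Head to head means that the starts face each other and the genes run apart. This held for 125 members (84 overlapping at the starts and 41 with a gap), of which 29 and 16 were tested. Another 124 members lay inside the partner's span, and 23 of these were tested. Tail to tail, with the ends facing, lay 39 members (27 overlapping and 12 apart), of which 10 and 4 were tested, and 9 members spanned the whole partner, of which 3 were tested.

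The stretches between or before the starts show how close both genes of a pair lie. In the next 2 sequences (RefSeq, GRCm38.p6, 5′ to 3′ on the partner's strand, ending just before the partner's first exon) capitals mark bases inside the annotated span of the opposite-strand transcript and lower case the gap between the starts. Cep83 (chr10:94688540-94688653, plus strand) is shown because Cep83os fell in hypoxia and Cep83 did not, and Brip1 (chr11:86201194-86201443, minus strand) because Brip1os exceeded its partner most per length.
Cep83: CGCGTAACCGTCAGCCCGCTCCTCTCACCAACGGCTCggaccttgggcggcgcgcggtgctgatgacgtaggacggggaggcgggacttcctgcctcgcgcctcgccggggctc
Brip1: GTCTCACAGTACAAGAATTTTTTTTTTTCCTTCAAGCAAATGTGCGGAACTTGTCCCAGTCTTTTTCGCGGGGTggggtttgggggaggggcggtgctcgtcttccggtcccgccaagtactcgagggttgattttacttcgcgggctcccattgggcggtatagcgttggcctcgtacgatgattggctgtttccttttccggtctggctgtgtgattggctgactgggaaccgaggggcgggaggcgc
The gap was 77 bases for Cep83 and 176 bases for Brip1. GC content was 72.8% over the Cep83 stretch and 56% over the Brip1 stretch.

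The other 2 stretches lie wholly inside the span of the opposite-strand transcript, and capitals mark the HIF core letters given above, on either strand. Jun (chr4:95052223-95052472, minus strand) is shown because it had the largest change of any partner, and Kcnd3 (chr3:105451640-105451889, plus strand) because Kcnd3os fell and Kcnd3 did not.
Jun: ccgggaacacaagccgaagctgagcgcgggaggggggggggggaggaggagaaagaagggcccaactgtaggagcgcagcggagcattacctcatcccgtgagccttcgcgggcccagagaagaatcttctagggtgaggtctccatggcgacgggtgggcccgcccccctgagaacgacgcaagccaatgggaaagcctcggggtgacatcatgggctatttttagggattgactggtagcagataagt
Kcnd3: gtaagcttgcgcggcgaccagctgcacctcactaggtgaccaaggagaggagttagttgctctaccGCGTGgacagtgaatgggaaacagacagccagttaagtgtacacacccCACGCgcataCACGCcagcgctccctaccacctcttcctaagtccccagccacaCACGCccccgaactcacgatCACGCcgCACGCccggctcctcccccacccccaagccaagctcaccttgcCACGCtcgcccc
The core letters occurred 7 times in the 250 bases before the RefSeq start of Kcnd3 and 0 times in those before Jun. A match of letters is a description of this window only.

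The opposite-strand transcripts were scarce. Of the 297, 33 had 0 counts in every library and 179 more had some counts but were not tested, with a median total of 9 counts over all libraries. The 85 tested members held 95.8% of all counts given to members, and the 10 with the most counts held 60.8%. Tested members had a median of 1.01 CPM (0.342 to 33.6 CPM), against 40.1 CPM for their partners and 16.2 CPM for all 16319 genes tested. In all, members made up 0.0292% ± 0.000915 (SD, n = 6) of the counts in control and 0.0274% ± 0.00144 (SD, n = 5) in hypoxia (2-sided exact permutation test, p = 0.0325). This sum is set mostly by the 10 members with the most counts, Rab10os, Cep83os and Emx2os among them. It does not describe a typical member, and no like share was computed for other scarce genes. Partners made up 1.21% ± 0.0188 and 1.23% ± 0.00439 (exact permutation p = 0.0693).

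Per length, as CPM per kb of exon, the median ratio of an opposite-strand transcript to its partner was 10.2%, and 41 of 85 stood below 10%. In 9 pairs the opposite-strand transcript was the higher one. The ratio was 13.7 for Brip1os over Brip1 (a DNA helicase of the Fanconi anaemia repair pathway), 9.0 for Dlx6os1 over Dlx6 (a homeobox factor of forebrain interneurons) and 8.47 for Ccpg1os over Ccpg1. The partners of these 3 were themselves low, at 0.208, 0.420 and 0.257 CPM per kb. Ttc39aos1 stood 4.39 times above Ttc39a. Wdr83os, which codes for a small endoplasmic reticulum protein, stood 1.5 times above Wdr83. In the remaining 4 (Tomm6os, Prox2os, Brd3os and Epb41l4aos) the ratio was 1.12 to 1.39. The plot of levels per length shows these 9 above the diagonal. Of the exon bases, 52.3% in Wdr83os and 56.8% in Prox2os are shared with the partner. Other genes share 41.5% in Tomm6os (Prickle4), 12.3% in Brip1os (Med13) and 4.0% in Dlx6os1 (Gm27905). Reads from such bases have no certain source, so the ratios of those pairs are uncertain.

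**Figure D1:**
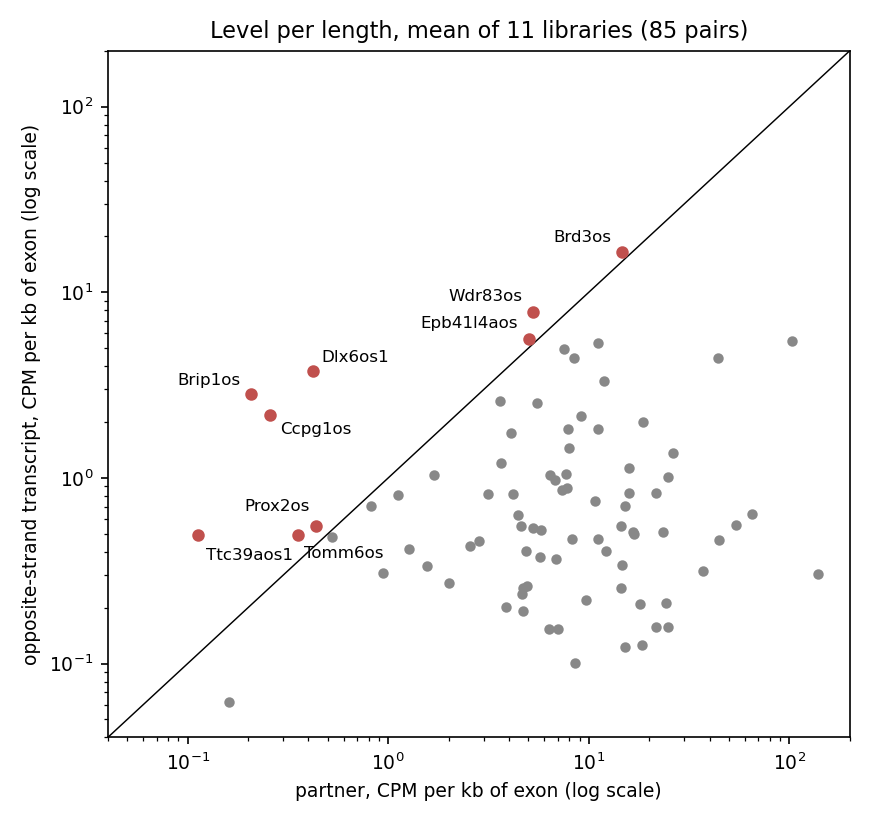
Level of each tested opposite-strand transcript (y axis) against its partner (x axis), in CPM per kb of exon, mean of 11 libraries, both axes on a log scale. The 9 red points above the line of equal level are named, and the other 76 of the 85 pairs lie below it.

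Most of the abundant members had small fold changes. Rab10os had the highest level, at 35.4 ± 1.69 CPM (SD, n = 6) in control, followed by Brd3os at 30.0 ± 1.66 CPM, Slc7a6os at 21.5 ± 0.859 CPM, Dlx6os1 at 20.1 ± 2.29 CPM, Brip1os at 19.3 ± 1.17 CPM and Cep83os at 18.5 ± 1.68 CPM. Neighbours in this order from Slc7a6os to Cep83os overlapped in their spread. Emx2os (10.0 ± 0.715 CPM), Wdr83os (8.17 ± 0.787 CPM), Srrm4os (6.69 ± 1.06 CPM) and Tmem147os (6.40 ± 0.534 CPM) completed the 10 highest. Of these 10, Rab10os, Cep83os and Emx2os passed the test, all lower in hypoxia, and the log2 fold changes of the other 7 ran from -0.13 (Brip1os) to 0.49 (Srrm4os, adjusted p = 0.0526 by edgeR). Of the members that code for protein, 0 of 7 passed in edgeR or DESeq2, and 1 (Brd3os, higher) had an unadjusted edgeR p below 0.05. By edgeR 23.0% of all genes passed, and 7 members are too few to be told apart from that share.

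In hypoxia, 3 members rose and 9 fell by edgeR's quasi-likelihood test (Benjamini-Hochberg adjusted p under 0.05 over all genes tested). That is 14.1% of 85, against 23.0% of all genes (10.2% higher and 12.8% lower) and 13.1% of genes with a mean below 5 CPM (2.81% higher and 10.3% lower). Below 5 CPM, 3 of 72 members rose and 5 fell (11.1%), and at 5 CPM or more, 4 of 13 fell. The share called was thus near that of other scarce genes. The median log2 fold change was -0.13 over members, -0.10 over genes below 5 CPM and -0.02 over all genes, and 57 of 85 members had a value below 0. At an unadjusted p below 0.05 stood 8 members on the higher and 17 on the lower side. In either direction this is 25 of 85 members, against 5692 of 16319 genes and 1271 of 5259 genes below 5 CPM. The groups' CPM did not overlap in 5 of 85 members (5.88%), against 14.0% of all genes and 6.83% of genes below 5 CPM.

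The largest fall was that of Phf2os1 (ENSMUSG00000086889, chr13:48871112-48875460), which starts 7 bases from the start of Phf2, a histone demethylase. Its lowest, median and highest level in control was 0.360, 0.690 and 0.887 CPM, and hypoxia libraries 1 to 5 had 0.485, 0.340, 0.201, 0.162 and 0.220 CPM. The other 4 hypoxia libraries, 2 to 5, lay below all controls, and hypoxia 1 lay above the lowest control. The log2 fold change was -1.27 (SE 0.29, edgeR adjusted p = 0.0047), from 6 to 24 counts per control library. Phf2 itself had 36.5 ± 3.70 CPM (SD, n = 6) in control and 38.3 ± 1.61 CPM (SD, n = 5) in hypoxia, with a log2 fold change of 0.06 (SE 0.06, adjusted p = 0.501).

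Grin1os (ENSMUSG00000085830, chr2:25291220-25298925) lies inside Grin1, which codes for the subunit that every NMDA glutamate receptor contains. Control libraries had 1.56, 1.78 and 2.11 CPM (lowest, median, highest) and the 5 hypoxia libraries 1.5, 1.09, 1.21, 0.606 and 0.628 CPM. All hypoxia libraries lay below all controls, with hypoxia 4 and 5 well below the other hypoxia libraries. The log2 fold change was -0.87 (SE 0.20, adjusted p = 0.00528 by edgeR). Grin1 changed by 0.05 (SE 0.08, adjusted p = 0.703). Of the Grin1os exon bases, 45.2% are also Grin1 exon, the largest such share among the members that were called, and Grin1 had 160 ± 21.7 CPM (SD, n = 6) in control.

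Tomm6os (chr17:47687610-47691083) starts 776 bases from the start of Tomm6, a small subunit of the mitochondrial protein import pore. It had 1.51, 1.67 and 2.04 CPM in control (lowest, median, highest), and 1.15, 1.28, 0.765, 1.01 and 1.26 CPM in hypoxia libraries 1 to 5. The groups did not overlap, and the log2 fold change was -0.66 (SE 0.15, edgeR adjusted p = 0.0056). Its exons share 41.5% of their bases with Prickle4, so those reads have no certain source. Tomm6 was listed at only 0.419 ± 0.164 CPM (SD, n = 6) in control and 0.378 ± 0.114 CPM (SD, n = 5) in hypoxia, a low level at which its value is uncertain.

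Kcnd3os (chr3:105441595-105452955) runs head to head with Kcnd3, a voltage-gated potassium channel subunit of the A type. Its control libraries spanned 1.15 to 1.5 CPM (median 1.42 CPM), and the hypoxia libraries had 1.01, 1.17, 0.806, 0.526 and 0.722 CPM. Hypoxia 2 was just above the lowest control and the other 4 below it. The log2 fold change was -0.67 (SE 0.19, edgeR adjusted p = 0.0154), and for Kcnd3 it was 0.01 (SE 0.04, adjusted p = 0.898).

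Emx2os (chr19:59425104-59458635) was the case where a member and its partner fell together. Emx2 is a homeobox factor needed to form the hippocampus. Emx2os had 8.89, 10.1 and 10.8 CPM in control (lowest, median, highest) and 8.37, 8.19, 8.66, 8.09 and 7.85 CPM in hypoxia libraries 1 to 5, without overlap. Its log2 fold change was -0.29 (SE 0.07, edgeR adjusted p = 0.00497). Emx2 went from 24.8 ± 0.720 CPM (SD, n = 6) to 22.1 ± 0.971 CPM (SD, n = 5), also without overlap, a log2 fold change of -0.17 (SE 0.04, adjusted p = 0.0139). The Emx2 call was lost without the count filter and in the fit with the replicate number as a term (adjusted p up to 0.0773), and that of Emx2os held in each alternative run.

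A group of more abundant members fell by small amounts. Cep83os, next to a gene for a centriole appendage protein, had 16.2, 18.9 and 20.4 CPM in control (lowest, median, highest) and 14.7, 14.6, 14.8, 15.0 and 17.5 CPM in hypoxia, where hypoxia 5 stood alone inside the control range. Its log2 fold change was -0.26 (SE 0.07, edgeR adjusted p = 0.0141). Mkln1os, whose start lies 38 bases from that of Mkln1 (muskelin, part of a ubiquitin ligase), had 5.03 to 5.99 CPM in control (median 5.75 CPM) and 4.14, 4.76, 4.51, 4.69 and 5.12 CPM in hypoxia. Hypoxia 5 was again the highest and the only one inside the control range (log2 fold change -0.26, SE 0.08, adjusted p = 0.0296). Rab10os, tail to tail with a small GTPase of membrane traffic, had 33.0 to 37.2 CPM in control (median 35.3 CPM) and 34.8, 31.0, 32.1, 30.0 and 29.7 CPM in hypoxia (log2 fold change -0.17, SE 0.05, adjusted p = 0.02). Only hypoxia 1 lay inside the range of the controls. None of the 3 partners passed: the values were 0.01 for Cep83, 0.04 for Mkln1 and -0.11 for Rab10 (adjusted p = 0.0754 for the last).

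Chn1os3 lies tail to tail with Chn1, a GTPase-activating protein for Rac. It had 0.539 to 1.07 CPM in control (median 0.803 CPM) and 0.661, 0.566, 0.443, 0.404 and 0.220 CPM in hypoxia. The groups overlapped in hypoxia 1 and 2, and the log2 fold change was -0.79 (SE 0.27, edgeR adjusted p = 0.0422). Leaving out any 1 of 8 libraries ended this call (adjusted p up to 0.106), as did testing without the count filter. Calls were likewise lost for Mkln1os (8 libraries, up to 0.0776, and also in DESeq2 and without the filter, up to 0.0992), Rab10os (3 libraries, up to 0.0612, and also without the filter) and Cep83os (without hypoxia 2, 0.0501). Phf2os1, Grin1os, Kcnd3os, Tomm6os and Emx2os passed with any 1 library left out.

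Of the 3 members that rose, Ube4bos1 changed most. It lies inside Ube4b, which codes for a factor that lengthens ubiquitin chains. It had 0.180, 0.259 and 0.349 CPM in control (lowest, median, highest) and 0.353, 0.680, 1.33, 0.768 and 0.283 CPM in hypoxia libraries 1 to 5. Hypoxia 2, 3 and 4 were high, hypoxia 5 lay within the control range and hypoxia 1 just above it. The log2 fold change was 1.30 (SE 0.37, edgeR adjusted p = 0.0184), and without hypoxia 3, which had 33 counts against 3 to 19 elsewhere, the adjusted p was 0.0604. It met the count filter only just, and 3 of its 5 libraries with 10 or more counts were hypoxia libraries. Ube4b rose from 167 ± 6.31 CPM (SD, n = 6) to 187 ± 3.13 CPM (SD, n = 5) without overlap, a log2 fold change of 0.16 (SE 0.03, adjusted p = 0.00212).

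Atcayos lies tail to tail with Atcay, the gene for caytaxin, a protein of neurons. Its control libraries had 1.86, 2.47 and 2.70 CPM (lowest, median, highest), and the hypoxia libraries 4.14, 3.44, 3.46, 3.48 and 2.07 CPM. Hypoxia 1 to 4 were above all controls, and hypoxia 5 was among the controls. The log2 fold change was 0.48 (SE 0.16, edgeR adjusted p = 0.0385), and any 1 of 7 libraries left out ended the call (adjusted p up to 0.107). Epb41l4aos, a lincRNA apart from its partner, had 1.86, 2.09 and 2.54 CPM in control and 3.22, 2.53, 2.46, 2.79 and 2.67 CPM in hypoxia, with hypoxia 2 and 3 inside the control range. Its log2 fold change was 0.34 (SE 0.12, adjusted p = 0.046), a call lost without any 1 of 8 libraries (up to 0.12) and in DESeq2. Atcay (0.10, adjusted p = 0.127) and Epb41l4a (-0.08, adjusted p = 0.141) did not pass. The plot of the called members shows all 12 by library.

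**Figure D2:**
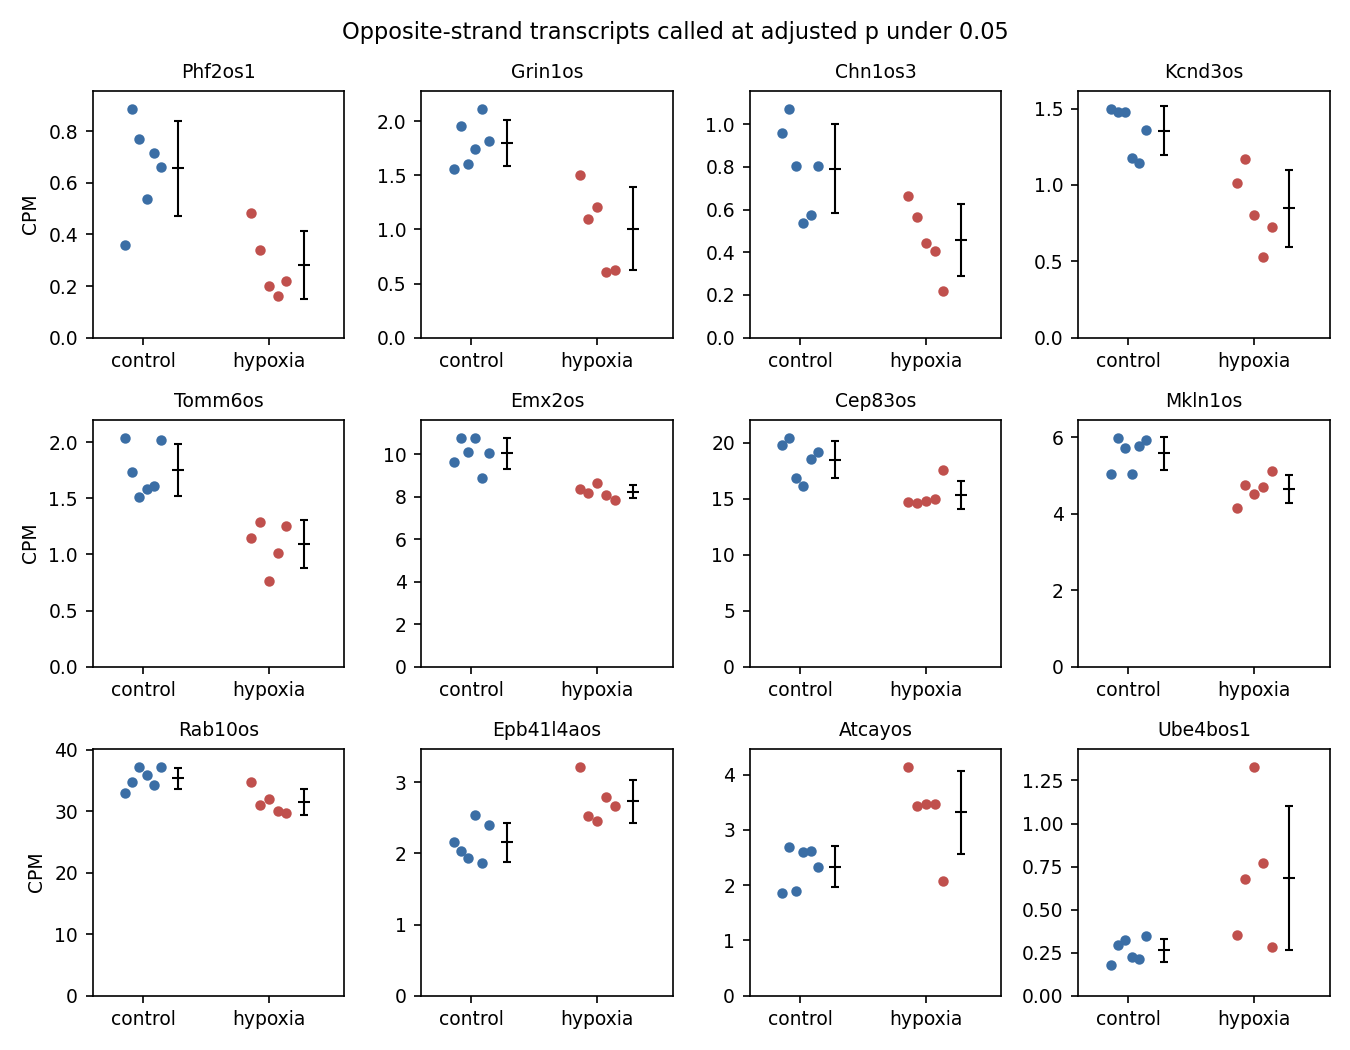
CPM of the 12 called opposite-strand transcripts in each control (blue, n = 6) and hypoxia (red, n = 5) library, with black marks for mean and SD, each axis from 0. Grin1os, Tomm6os and Emx2os do not overlap between the groups, and in Cep83os, Atcayos and Ube4bos1 hypoxia 5 lies inside the control range.

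The count of calls turned on single libraries. It was 7 without hypoxia 2 (2 higher, 5 lower) and 7 without hypoxia 4 (1 higher, 6 lower), and 18 without hypoxia 5 (7 higher, 11 lower, 10 of them among the 12). The members added without hypoxia 5 included Srrm4os, opposite the neuronal splicing regulator Srrm4, which also passed without control 1 or control 2. Its control libraries had 5.37, 6.59 and 7.91 CPM, and the hypoxia libraries 12.3, 10.3, 10.4, 8.97 and 4.96 CPM, so that 4 lay above every control and hypoxia 5 below every control. Without it the log2 fold change was 0.66 (edgeR adjusted p = 0.00062) in place of 0.49. Rapgef4os2 (0.91, adjusted p = 0.0222 without hypoxia 5, 0.62 and 0.249 with it), Sorbs2os, Dtnbos and Slain1os were the other 4 added on the higher side, and N4bp2os, Hopxos and Phtf1os were added on the lower side.

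Hypoxia 5 was the lowest of the 5 hypoxia libraries for 33 of 85 members (38.8%) and for 31 of 81 partners (38.3%), against 25.8% of all genes tested. By position it was lowest for 15 of 23 members inside the partner's span (65.2%) and for 7 of 14 tail to tail (50%), but for 10 of 45 head to head (22.2%). It had the highest total count of all 11 libraries. Control 5 was the lowest of the 6 controls for 26 of 85 members (30.6%) and for 12 of 23 inside the partner's span (52.2%), against 17.8% of all genes tested. Both libraries numbered 5 were the lowest of their groups for 15 of 85 members (17.6%), Srrm4os, Dtnbos and Slain1os among them, against 8.38% of all genes. What sets these libraries apart was not tested, and neither was the part of unspliced partner RNA in members inside the partner's span.

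By position, most head-to-head members lay below 0, and those inside a partner lay on both sides. Of 45 head to head, 0 rose, 6 fell and 36 had a log2 fold change below 0 (median -0.17). That is 13.3% called, against 23.0% of all genes and 13.1% of genes below 5 CPM (2.81% higher and 10.3% lower). DESeq2 also gave 0 higher, with 5 lower and 34 below 0, and at an unadjusted edgeR p below 0.05 stood 1 higher (Dgkeos) and 13 lower. Such a p, in either direction, was found for 5692 of all 16319 genes and 1271 of 5259 genes below 5 CPM. Where the starts lay within 1000 bases (36 members), 0 rose, 6 fell, 30 were below 0 and the median was -0.21, and none stood on the higher side at an unadjusted p below 0.05 (DESeq2 gave 0 higher and 5 lower). The 23 members inside the partner's span had 1 higher, 1 lower, 10 below 0 and a median of 0.07. Tail to tail, 2 of 14 rose, 2 fell and 9 were below 0 (median -0.12). These last counts turned on single libraries. Inside the span, 5 rose and 2 fell without hypoxia 5, and 0 rose and 1 fell without hypoxia 3 or with filterByExpr. Tail to tail, 0 rose and 0 fell without control 3, hypoxia 2 or hypoxia 4. With any 1 library left out, head-to-head members below 0 numbered 33 to 37 (medians -0.23 to -0.14) and those inside a partner 9 to 12 (medians -0.02 to 0.16), with 1 head-to-head member higher without hypoxia 2. The difference between positions was described and not tested. Over all genes, 53.9% had a value below 0, and over genes with a mean below 5 CPM, 63.1%. Partners of the head-to-head members rose in 5 and fell in 9 of 45 cases, with a median of -0.02.

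**Figure D3:**
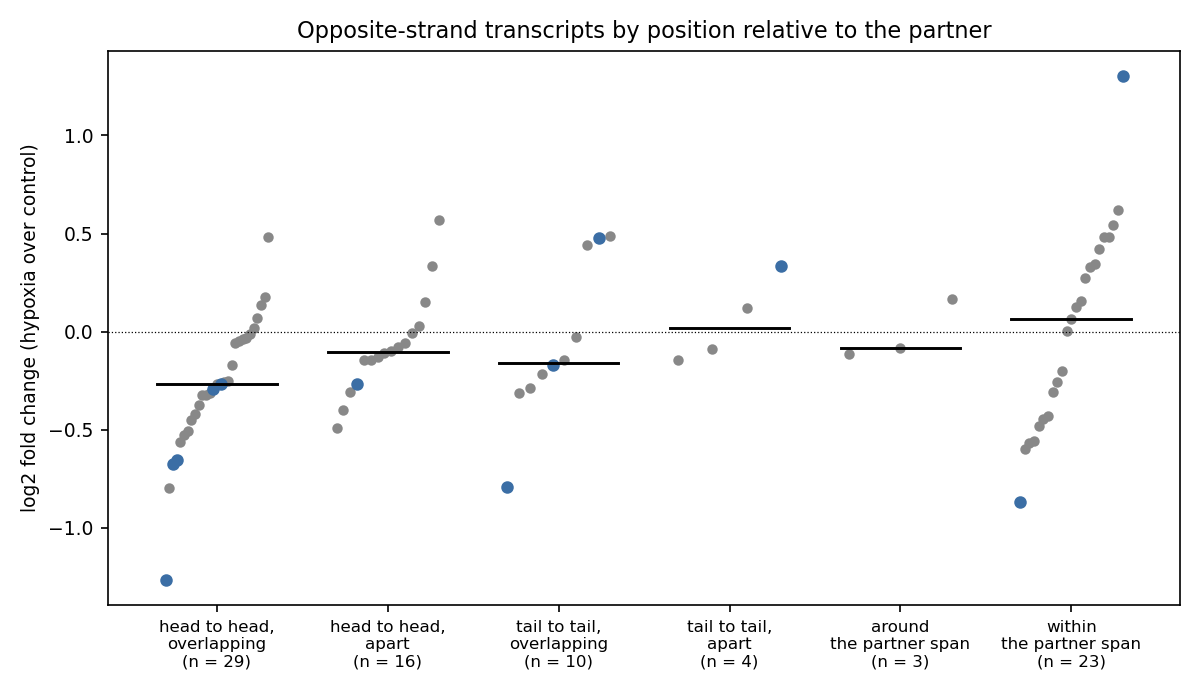
Log2 fold change (hypoxia over control) of the 85 tested opposite-strand transcripts, by position relative to the partner, with called members in blue, the others in grey, and a bar at each median. Head-to-head members lie mostly below 0 (36 of 45), and those inside the partner's span lie on both sides (10 of 23 below 0).

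The partners, which have far higher counts, were called in a larger share. Of 81, 13 rose and 14 fell (33.3%, against 23.0% of all genes), with a median log2 fold change of -0.02. All genes had a lower median level (16.2 against 40.1 CPM), and the share among genes of the partners' level was not taken. Among partners of members that were not tested, 14 of 117 rose and 11 fell (21.4%). Jun, a subunit of the AP-1 transcription factor, had the largest change. Its control libraries had 31.4, 34.1 and 40.8 CPM (lowest, median, highest) and its hypoxia libraries 88.1, 89.5, 81.3, 89.8 and 84.0 CPM. The lowest hypoxia library thus stood far above the highest control (fitted log2 fold change 1.28, SE 0.06, edgeR adjusted p = 2.25e-09).

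Junos (ENSMUSG00000087366, chr4:95051534-95167318), which starts 688 bases inside Jun and runs out past the start of Jun, did not pass the test. It had 0.314, 0.606 and 0.779 CPM in control and 0.353, 0.453, 0.564, 0.323 and 0.345 CPM in hypoxia. All 5 hypoxia libraries lay inside the range of the controls, below their median. The log2 fold change was -0.56 (SE 0.25, adjusted p = 0.121 by edgeR), which does not pass, with 9 to 24 counts per control library, and without control 6 it was -0.70 (adjusted p = 0.0345). Exon bases shared with Jun made up 5.63% of Junos.

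The other called partners of the largest change fell. Far1, an enzyme that makes fatty alcohols for ether lipids, had 155, 171 and 184 CPM in control and 118, 124, 136, 130 and 111 CPM in hypoxia, without overlap (log2 fold change -0.46, SE 0.05, edgeR adjusted p = 1.3e-05). Far1os, inside it, had 2.18 ± 0.468 CPM (SD, n = 6) and 2.21 ± 0.438 CPM (SD, n = 5), a log2 fold change of 0.00 (SE 0.17). Fam120a, an RNA-binding scaffold protein, had 144, 149 and 151 CPM in control and 114, 115, 122, 118 and 126 CPM in hypoxia, again without overlap (-0.31, SE 0.03, adjusted p = 9.25e-06). Fam120aos, with its start 270 bases away, changed by -0.15 (SE 0.13, adjusted p = 0.455). Man2c1, a cytosolic mannosidase, fell by 0.33 (SE 0.06, adjusted p = 0.000719) and Man2c1os stood at -0.53 (SE 0.28, adjusted p = 0.189). Fbxl12, a substrate adaptor of a ubiquitin ligase, fell by 0.51 (adjusted p = 0.00195), with Fbxl12os at -0.14. Ttc39a fell by 0.90 (SE 0.29, adjusted p = 0.0351) from a level of 0.710 ± 0.199 CPM (SD, n = 6), a call that any 1 of 7 libraries left out ended. Slc7a6, an amino acid transporter, fell by 0.20 (adjusted p = 0.0377, lost without any 1 of 7 libraries), and Wdr83 fell by 0.23 (adjusted p = 0.0177), while Slc7a6os (-0.09) and Wdr83os (-0.04) did not pass.

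Of the 85 pairs, 2 had both genes called (Emx2 and Ube4b with their opposite-strand transcripts, the same way in both), 10 had only the opposite-strand transcript called, 26 only the partner and 47 neither. Both of these pairs rest on an unsteady call. Ube4bos1 met the count filter only just, mostly through hypoxia libraries, and was not called without hypoxia 3 (edgeR adjusted p = 0.0604). Emx2 was not called without the count filter or with the replicate term. The signs of both fold changes were equal in 43 of the 85 pairs and opposite in 42 (50.6% equal). Across pairs, the fold changes had a Pearson r of 0.07 and a Spearman rho of 0.11 (n = 85 pairs over the same 11 libraries, of which 8 share 4 partners), and r was 0.19 without Jun and Junos. For comparison, all pairs of tested genes that lie on opposite strands within 5000 bases (4842 by coordinates) had equal signs in 52.9% and r = 0.12. These were not matched for level. Pairs are not independent replicates and both genes come from the same library, so these values describe this set only.

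**Figure D4:**
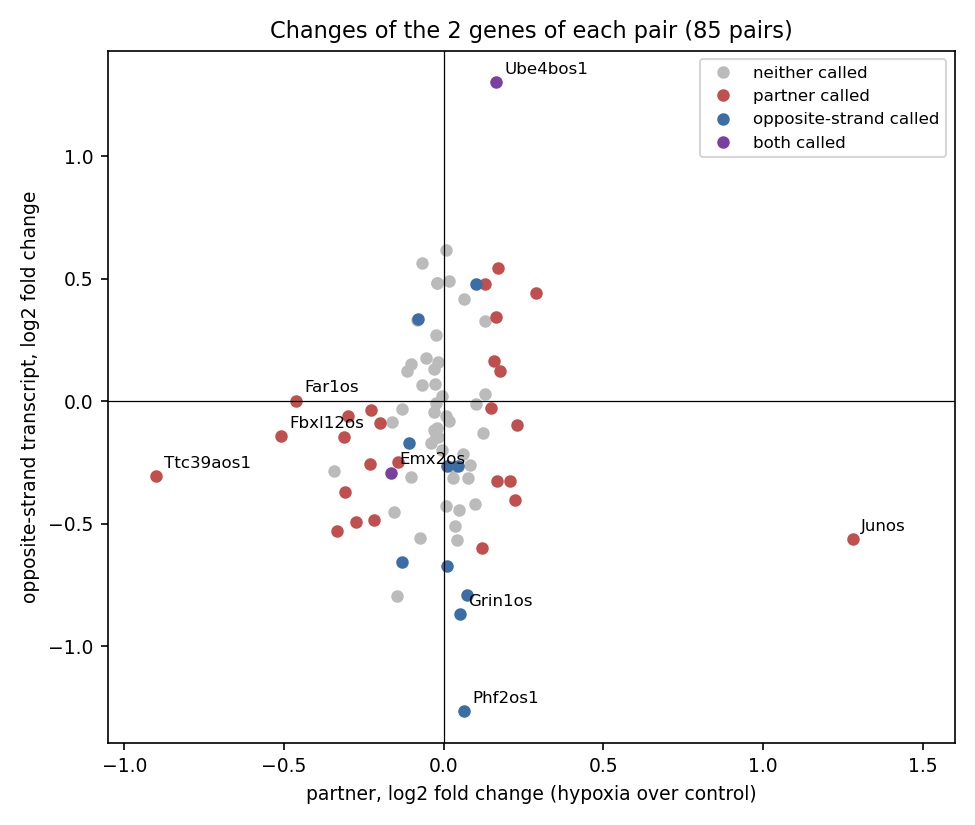
Log2 fold change (hypoxia over control) of each opposite-strand transcript (y axis) against that of its partner (x axis), 85 pairs, coloured by which of both genes passed the test. Emx2os and Ube4bos1 are the 2 pairs with both called, and Junos lies at -0.56 where Jun lies at 1.28.

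The ratio of both genes within a library needs no scaling factor. It was taken as log2 of the counts after adding 2 to each, an addition that weighs more where counts are low, and compared between groups by an exact permutation test over the 462 splits of 11 libraries, for which the smallest possible p is 0.00216. At an unadjusted p below 0.05 stood 20 of 85 pairs (23.5%), with the opposite-strand share lower in 12 and higher in 8, against 31.7% of the 4842 coordinate pairs. The groups did not overlap in 4 of 85 (4.71%), against 13.0% of coordinate pairs, and in 3 of 85 after adding 0.5 in place of 2. Coordinate pairs were not matched for level, and a ratio is noisier where counts are low. Both lower shares among the named pairs thus cannot be told apart from an effect of their low counts.

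These 4 pairs were Junos, Phf2os1, Grin1os and Epb41l4aos. For Junos over Jun, control ran from -6.73 to -5.13 (median -5.68) and the hypoxia libraries had -7.64, -7.40, -6.98, -7.80 and -7.69, a difference of -1.77 (exact permutation p = 0.00433). For Phf2os1 over Phf2, control ran from -6.03 to -5.13 and hypoxia had -6.04, -6.47, -7.11, -7.26 and -7.18, a difference of -1.14 (exact permutation p = 0.00216). In the second pair hypoxia 1 was level with the lowest control, and after adding 0.5 the groups overlapped there (-6.22 against -6.33, a difference of means of -1.29, exact permutation p = 0.00433). For Grin1os over Grin1, control ran from -6.62 to -6.12 and hypoxia had -6.87, -7.06, -6.97, -7.80 and -7.99, a difference of -0.92 (exact permutation p = 0.00216). For Epb41l4aos over Epb41l4a, control ran from -4.66 to -4.12 and hypoxia had -3.74, -4.08, -4.11, -4.01 and -3.98, a difference of 0.41 (exact permutation p = 0.00433). The last pair thus had the opposite-strand share raised in all 5 hypoxia libraries, by a small margin in 2 of them.

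**Figure D5:**
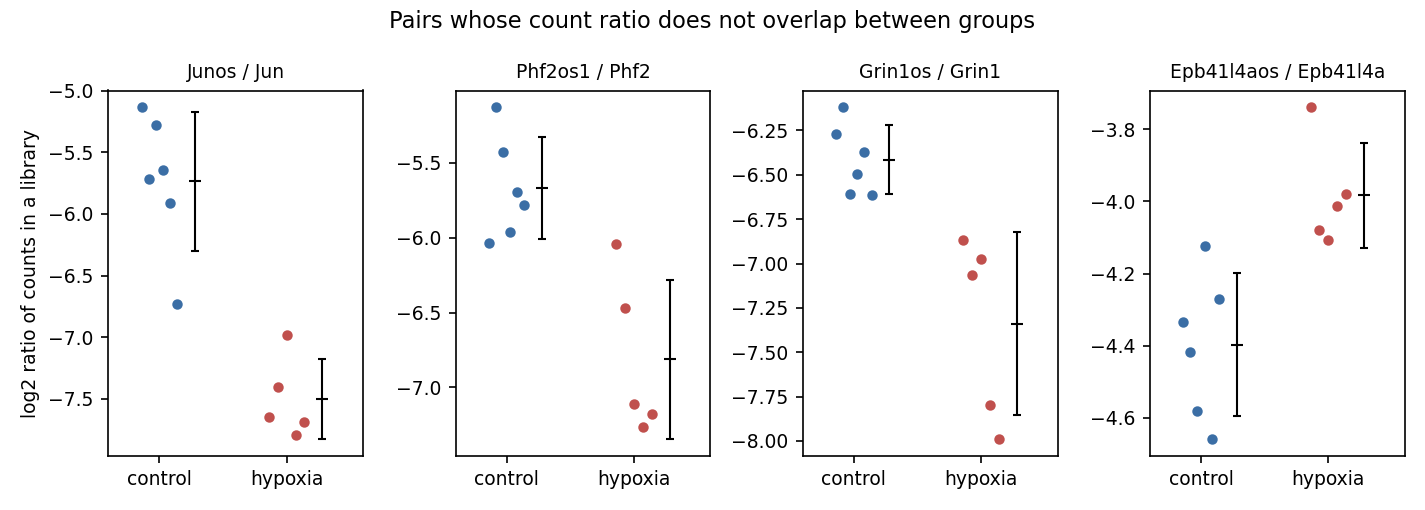
Log2 ratio of counts, opposite-strand transcript over partner, in each control (blue, n = 6) and hypoxia (red, n = 5) library for the 4 pairs without overlap between the groups when 2 is added to each count (3 when 0.5 is added, where Phf2os1 overlaps), with mean and SD in black. The ratio is lower in hypoxia for Junos, Phf2os1 and Grin1os and higher for Epb41l4aos.

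Among the other pairs of genes named here, the ratio was lower for Kcnd3os (-0.68, exact permutation p = 0.00433), Mkln1os (-0.30, exact p = 0.00866), N4bp2os (-0.83, exact p = 0.0152), Chn1os3 (-0.80) and Cep83os (-0.28, both exact p = 0.0173). It was higher for Far1os (0.49, exact permutation p = 0.0108), Brd3os (0.23, exact p = 0.0173), Wdr83os (0.20, exact p = 0.0281), Ube4bos1 (0.83, exact p = 0.0303) and Fbxl12os (0.35, exact p = 0.0498). The other 6 of the 20 pairs, named after their values were seen, were lower for Zbtb11os1 (-0.49), Cpeb1os1 (-0.59), Zfp335os (-0.32) and Cebpzos (-0.18), and higher for Dgkeos (0.48) and Slain1os (0.49), with exact permutation p from 0.00649 to 0.0476. In Far1os, Wdr83os and Fbxl12os, as in Junos, the partner was the gene that had passed. The same held for Zbtb11os1, Cpeb1os1 and Cebpzos. Their partners rose by 0.17, 0.22 and 0.15 (edgeR adjusted p = 0.00884, 0.0127 and 0.0198). These 3 members stood at -0.32, -0.40 and -0.03 and did not pass. For Emx2os, whose partner fell too, the ratio differed by -0.12 (exact permutation p = 0.0693), and for Rab10os by -0.06 (exact p = 0.537). Brd3 codes for a bromodomain reader of acetylated histones, and neither Brd3os (0.12, edgeR adjusted p = 0.129) nor Brd3 (-0.12, adjusted p = 0.144) passed alone.

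Some members had large fold changes that did not pass. N4bp2os had 0.729, 0.892 and 1.01 CPM in control and 0.0882, 0.642, 0.604, 0.283 and 0.848 CPM in hypoxia libraries 1 to 5, for a log2 fold change of -0.79 (SE 0.30, edgeR adjusted p = 0.0716). Hypoxia 1 to 4 lay below every control, and hypoxia 5 among the controls. Rapgef4os2, inside the gene for the cAMP sensor Epac2, stood at 0.62 (SE 0.37, adjusted p = 0.249), and Sap30bpos at -0.60 (SE 0.27, adjusted p = 0.129). At the count filter, Atad3aos, Ift88os and Ube4bos1 stood just inside, with 5 libraries at 10 counts or more and totals of 102, 108 and 131 counts. Zmiz1os1, Tmem150cos and Mettl5os stood just outside, with 4 such libraries and totals of 109, 99 and 97 counts.

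Names with the endings "as" or "ot" were kept apart. Among 7 tested genes of that kind, 0 rose and 3 fell by edgeR, and 4 had an unadjusted p below 0.05. Over all genes, 23.0% were called (10.2% higher and 12.8% lower), and 5692 of 16319 had such an unadjusted p. A set of 7 is too small to be told apart from these shares. Hras and Leprot have the ending by chance, and Znrd1as is annotated as coding. Of the 4 non-coding ones, Dlx1as (3.79 ± 0.294 CPM, n = 6, to 2.66 ± 0.565 CPM, n = 5, log2 fold change -0.52, edgeR adjusted p = 0.00603) and Sox1ot (-0.15, adjusted p = 0.0337) fell, while Sox2ot (-0.13, adjusted p = 0.0861) and Kcnq1ot1 (-0.08, adjusted p = 0.826) did not pass. Dlx1as lies opposite a homeobox gene of the interneuron lineage, as Dlx6os1 does, and Dlx6os1 stood at -0.09 (SE 0.09, adjusted p = 0.566).

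RefSeq start windows (300 bases: 250 before and 50 after the start, GRCm38.p6) were found for 60 of 85 tested members and 68 of 81 partners. The HIF core letters (ACGTG or GCGTG, either strand) occurred in 43.8% of all 32851 windows, in 34 of 72 windows of members (47.2%) and in 53 of 92 windows of partners (57.6%). The median GC content of these sets was 52.7%, 55% and 62%. Head-to-head members with starts within 1000 bases had the letters in 19 of 37 windows (51.4%, median GC 60%), and members inside a partner in 4 of 14 (28.6%, median GC 52.5%). The E-box CACGTG, which contains the core letters, occurred in 7.15% of all windows, in 10 of 72 of members (13.9%), in 8 of 37 of those close head-to-head members (21.6%, 6 genes of 28) and in 6 of 92 of partners (6.52%). The cAMP response element TGACGTCA occurred in 1.79% of all windows, 0 of members and 3 of partners, and 1 consensus form of the serum response element in 0.0639% of all windows and in none of either set. Several windows can belong to 1 gene, and these shares are descriptions with no test.

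In the authors' deposited table of genes higher in hypoxia, Srrm4os was the 1 opposite-strand transcript (log2 fold change 0.43, adjusted p 0.0149). The authors' deposited table of lower genes held 6: Grin1os (-0.87), Chn1os3 (-0.85), Kcnd3os (-0.68), Tomm6os (-0.66), Emx2os (-0.28) and Rab10os (-0.15). Phf2os1, Ube4bos1, Cep83os, Mkln1os, Atcayos and Epb41l4aos, all called here, were in neither table, and Srrm4os was not called here. Of all 252 partners, the authors' deposited tables held 35 higher and 24 lower. The share of all genes in these tables was not taken, so these counts have no background beside them.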

How the data were processed

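The authors deposited 1 table per library, with a whole-number count of reads for each Ensembl gene. STAR 2.5.2b, Subread 1.5.1 with featureCounts, FastQC 0.11.5, DESeq2 and the build mm10 are named per the submitters' processing notes. For the annotation release, strand setting and multi-mapping reads, the choice is not given in the sources used here. Per the labels' protocols, polyadenylated RNA was made into unstranded libraries and sequenced as single-end reads of 50 bp. The authors' deposited tables of called genes hold log2 fold changes, adjusted p-values and a normalized signal per library, which was found to be the count divided by 1 size factor per library.

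The test was edgeR 4.0.16 (R 4.3.3): genes with at least 10 counts in at least 5 libraries, TMM factors, glmQLFit and glmQLFTest, hypoxia against control, 2-sided, without covariates, adjusted by Benjamini-Hochberg over 16319 genes. Scripts were tested on simulated data. Positions and exon lengths come from GENCODE M21 (GRCm38, the build named for the files). All per-library columns of the files were used or mapped. Members, lists and alternatives were chosen with earlier results of these data known. Named were the called members, the 10 most abundant, the 6 called partners of largest change, the 3 largest changes not called, 3 members on either side of the count filter, and pairs whose ratio did not overlap. Alternatives were DESeq2 1.42.0, RLE factors, filterByExpr, no filter, robust dispersion, a replicate term, a prior count of 0.5 in ratios, and each library left out. The fit on replicates 1 to 5 without pairing was added after the data were seen. Counts of 10 or so per library limit the precision of most members.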

Additional observations from a re-analysis of the deposited data

Results flagged for a closer look

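Among 122 groups of libraries of the genes named here, 5 held a library far from the rest of its group, and chance alone gives about 1 in 20. The flagged share is no larger than that. The groups come from the same 11 libraries and are not independent, so this rate is only a rough guide. Cep83os, Rapgef4os2 and Kcnd3 were all flagged in hypoxia 5. Cep83os had 17.5 CPM in hypoxia 5, against 14.6 to 15.0 CPM in the other hypoxia libraries. Rapgef4os2 had 0.157 CPM in hypoxia 5, against 0.717 to 0.927 CPM. Kcnd3 had 138 CPM in hypoxia 5, against 155 to 157 CPM. Rab10 had 411 CPM in control 1, against 367 to 373 CPM in the other controls. Dlx6 had 1.25 CPM in hypoxia 3, against 0.793 to 0.889 CPM.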

How the results depend on the processing

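The count of called opposite-strand transcripts was 12, and it was 10 with DESeq2, 13 with RLE factors, 11 with filterByExpr, 9 without a filter and 12 with robust dispersion. With 1 library left out it ran from 7 (without hypoxia 2 or hypoxia 4) to 18 (without hypoxia 5), from 22 to 26 against 27 for the partners, from 2980 to 4040 against 3751 for all genes, and from 14 to 27 against 20 for pairs whose ratio differed at an unadjusted exact p below 0.05 (21 with a prior count of 0.5). No direction was reversed in a named gene that had passed. The labels do not say whether equal replicate numbers mark paired libraries, and the data did not settle it. Deviations of same-numbered libraries correlated at -0.0957, 0.143, -0.0549, -0.0676 and 0.305 for numbers 1 to 5. Numbers 2 and 5 correlated best with their own number and the others did not, a hint from the data and not from the design. With the replicate block, on replicates 1 to 5, 13 members were called (8 of the 12), 23 partners and 2955 genes, against 11, 24 and 3406 on the same libraries without pairing, a fit added after the data were seen. Srrm4os passed with the block, with RLE factors and without a filter, while Atcayos, Epb41l4aos, Mkln1os and Rab10os did not pass with the block. Most members lie near 1 CPM, so small changes were not detectable at this depth.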
